A study of Mus musculus with 10 samples.

Results

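The protocadherin genes are the mouse protein-coding genes whose symbol begins with Pcdh, and they were described here in RNA from sorted lung endothelial cells. Gene names alone chose them, through the Ensembl identifiers of the count table, and 69 of 55385 rows were members. Of these, 57 lie in the clusters Pcdha (14 genes), Pcdhb (22 genes) and Pcdhg (21 genes), all on chromosome 18. The other 12 are non-clustered genes on chromosomes 3, 5, 10, 14, 18 and X, with Pcdh1 and Pcdh12 on chromosome 18. The family was singled out with earlier results of the same comparison in view, so its differences between groups are given as a description of these libraries.

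All mice carried Tnfsf10 alleles flanked by loxP sites on both copies (L/L); Tnfsf10 encodes the death ligand TRAIL. The EC-TRAIL KO group (n = 5 libraries, genotype Cdh5.Cre Tg/W) also had the tamoxifen-inducible Cre recombinase iCreERT2 under the promoter of Cdh5, the VE-cadherin gene of endothelial cells. The Control group (n = 5 libraries) was Cdh5.Cre W/W, with no transgene, so the Cre transgene and the deletion cannot be told apart. Per the labels' protocols, mice were 8 to 14 weeks old and had 1 mg tamoxifen per day for 5 or 10 days, which the labels do not split by group. The labels name 5 transgenic libraries where the series' design text names 4, and whether each library is a separate mouse is not stated, so p-values reflect only the variation among libraries, which may be technical.

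Protocadherins are cadherin-related adhesion molecules of the cell surface that mostly bind an identical molecule on a neighbouring cell. In the alpha and gamma clusters each gene has its own large first exon, encoding the outer part of the protein, which is spliced to constant exons shared by the whole cluster. In neurons most of these first exons are chosen at random through promoters bound by CTCF and cohesin, while the C-type genes at the cluster ends are used more constantly. Beta genes have a single coding exon, and the non-clustered delta protocadherins, each with its own cytoplasmic tail, act in cell sorting, migration and actin control. Protocadherins are best known from the brain, but Pcdh12, once named VE-cadherin-2, was described in vascular endothelium.

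The libraries held 29806083 to 34702571 expected counts in EC-TRAIL KO and 34435835 to 56897822 in Control. Levels are counts scaled to library size (CPM) after trimmed-mean (TMM) correction. Tnfsf10 was at 179 ± 89.7 CPM in EC-TRAIL KO and 334 ± 35.7 CPM in Control (SD, n = 5 each), and 4 of the 5 EC-TRAIL KO libraries lay below every Control library, the exception being replicate 2 at 318 CPM. The log2 fold change of Tnfsf10 was -0.90 (SE 0.276) and did not pass (edgeR adjusted p = 0.425). Endothelial markers were abundant, the 8 of them summing to 9824 to 11570 CPM in EC-TRAIL KO and 9902 to 11588 CPM in Control. Alveolar epithelial markers were present too (8 genes, 6231 to 8889 CPM in EC-TRAIL KO and 7375 to 11344 CPM in Control), so a protocadherin read need not come from an endothelial cell.

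To compare genes, CPM were divided by the length of each gene's merged exons in kilobases (kb). Pcdh1 ranked first, at 140 ± 25.9 CPM per kb in EC-TRAIL KO and 130 ± 20.9 CPM per kb in Control (SD, n = 5 each). Pcdh1, a delta protocadherin studied in airway epithelium and as an entry receptor of New World hantaviruses, was above every other member in all 10 libraries. Pcdhgc3, a C-type gene of the gamma cluster, came next with 65.8 ± 12.1 CPM per kb in EC-TRAIL KO and 57.1 ± 4.63 CPM per kb in Control, and its range did not meet that of any other member. Pcdh12 and Pcdh17 followed at 25.3 ± 8.46 and 25.1 ± 6.30 CPM per kb over all libraries (SD, n = 10). Per kb, the levels of this pair did not differ beyond their spread, since Pcdh12 exceeded Pcdh17 in 4 of 10 libraries. Before the division Pcdh17 averaged 327 CPM and Pcdh12 153 CPM over all libraries. Their merged exons span 12991 and 6058 bases, so the order per kb rests on the annotated length. Pcdhac2, the last C-type gene of the alpha cluster, came after them at 14.0 ± 2.32 CPM per kb over all libraries (SD, n = 10), and its range overlapped that of the next gene, Pcdhgb2 (11.2 ± 1.13 CPM per kb). From the ninth gene to the twentieth, each range overlapped that of the next gene.

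Promoter sequences from RefSeq (GRCm38.p6, 250 bases before to 50 bases after the start) were matched by symbol for 9 of 69 members, all non-clustered. The 4 below are shown because they set high, intermediate and near-absent levels beside CpG content; the capitals mark CG dinucleotides, in sequence read 5′ to 3′ on the gene's own strand. They lie at chr14:84443313-84443612 (Pcdh17, plus strand), chr3:49757267-49757566 (Pcdh18, minus strand), chr14:88471347-88471646 (Pcdh20, minus strand) and chr3:45378148-45378447 (Pcdh10, plus strand).
Pcdh17: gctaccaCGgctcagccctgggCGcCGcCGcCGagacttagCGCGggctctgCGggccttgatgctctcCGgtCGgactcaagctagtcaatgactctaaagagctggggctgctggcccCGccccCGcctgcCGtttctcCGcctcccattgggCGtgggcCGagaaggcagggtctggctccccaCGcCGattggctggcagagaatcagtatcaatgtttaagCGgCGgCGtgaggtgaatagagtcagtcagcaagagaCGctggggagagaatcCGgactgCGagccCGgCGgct
Pcdh18: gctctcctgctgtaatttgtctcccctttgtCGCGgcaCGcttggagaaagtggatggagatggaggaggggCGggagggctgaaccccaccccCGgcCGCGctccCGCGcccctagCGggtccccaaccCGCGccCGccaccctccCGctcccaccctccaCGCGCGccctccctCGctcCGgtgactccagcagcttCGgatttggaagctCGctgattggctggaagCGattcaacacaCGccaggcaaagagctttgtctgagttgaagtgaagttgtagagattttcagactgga
Pcdh20: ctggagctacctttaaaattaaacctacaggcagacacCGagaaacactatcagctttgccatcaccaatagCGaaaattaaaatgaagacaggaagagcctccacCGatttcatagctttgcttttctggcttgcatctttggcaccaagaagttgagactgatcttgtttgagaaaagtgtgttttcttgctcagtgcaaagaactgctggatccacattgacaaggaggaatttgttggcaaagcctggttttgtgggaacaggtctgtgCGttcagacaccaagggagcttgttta
Pcdh10: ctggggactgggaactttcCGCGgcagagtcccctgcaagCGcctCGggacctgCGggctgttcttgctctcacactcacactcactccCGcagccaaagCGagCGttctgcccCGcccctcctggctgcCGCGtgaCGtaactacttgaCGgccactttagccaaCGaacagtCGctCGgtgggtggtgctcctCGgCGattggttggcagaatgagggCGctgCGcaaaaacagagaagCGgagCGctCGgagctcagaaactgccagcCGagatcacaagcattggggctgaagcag

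Pcdh17 held 26 CG dinucleotides, more than 83.1% of the 32851 promoters in the table, and averaged 327 CPM. Pcdh10 held nearly as many, 24, and averaged 0.150 CPM, while Pcdh18 held 23 and averaged 32.4 CPM. Pcdh20 held 4, under the median of 7 over all promoters, and averaged 3.12 CPM. The hexamer TATAAA, searched on both strands, stood in 2 of the 10 member promoters, those of Pcdh8 and Pcdh15, and in 13.6% of all promoters in the table.

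Of the non-clustered genes, 7 reached a mean of 1 CPM. Pcdh1 (ENSMUSG00000051375, GRCm38 chromosome 18, 38185914 to 38212053, minus strand) had 1460, 1387, 1190, 872 and 1229 CPM in EC-TRAIL KO replicates 1 to 5, against 1297, 1134, 1202, 835 and 1258 CPM in Control replicates 1 to 5. The groups overlapped, and the library numbered 4 was the lowest in both. The log2 fold change of EC-TRAIL KO over Control was 0.10 (SE 0.148, edgeR adjusted p = 0.997), and with 1 library left out it ran from 0.0056 (without Control replicate 4) to 0.20 (without EC-TRAIL KO replicate 4).

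Pcdh17, a delta protocadherin that gathers the actin-regulating WAVE complex at contacts between axons (ENSMUSG00000035566, GRCm38 chromosome 14, 84443563 to 84539002, plus strand), had 316, 539, 350, 350 and 245 CPM in EC-TRAIL KO, against 283, 287, 323, 306 and 267 CPM in Control. Replicate 2 of EC-TRAIL KO stood above all other libraries, and replicate 5 of that group below all of them. The log2 fold change was 0.30 (SE 0.165, edgeR adjusted p = 0.997), and 0.10 (SE 0.108) without EC-TRAIL KO replicate 2. Pcdh12 (ENSMUSG00000024440, GRCm38 chromosome 18, 38267089 to 38284402, minus strand) had 219, 259, 142, 131 and 107 CPM in EC-TRAIL KO, against 179, 155, 116, 106 and 121 CPM in Control. Replicates 1 and 2 were the highest in each group, and the groups overlapped. Its log2 fold change was 0.34 (SE 0.232, edgeR adjusted p = 0.997), and 0.14 (SE 0.206) without EC-TRAIL KO replicate 2.

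Pcdh18, a delta protocadherin that binds the adaptor protein Dab1 (ENSMUSG00000037892, GRCm38 chromosome 3, 49743296 to 49757325, minus strand), was the non-clustered gene with the smallest p. It had 27.3, 25.3, 31.8, 24.6 and 32.8 CPM in EC-TRAIL KO, against 34.6, 38.3, 37.5, 35.1 and 36.4 CPM in Control. All 5 EC-TRAIL KO libraries lay below all 5 Control libraries. The means were 28.4 ± 3.72 CPM in EC-TRAIL KO and 36.4 ± 1.56 CPM in Control (SD, n = 5 each), and the fitted log2 difference was -0.36 (SE 0.0886). With edgeR this missed the threshold of 0.05 (adjusted p = 0.167, adjusted over every gene tested), whereas DESeq2 gave adjusted p = 0.0177, and over all 18 alternatives the adjusted p ran from 0.0177 to 0.440.

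In bulk RNA, fewer cells of a type and less RNA per cell cannot be told apart. Beside Pcdh18, the 7 fibroblast markers summed to 344 to 589 CPM in EC-TRAIL KO and 443 to 578 CPM in Control, with a median log2 fold change of -0.15 and 0 of 7 passing edgeR's test. The 7 pericyte and smooth muscle markers summed to 244 to 409 CPM in EC-TRAIL KO and 316 to 429 CPM in Control, with a median log2 fold change of -0.12 and 0 of 7 passing. No marker of these lists was at 0 in every library, and their part in the Pcdh18 values was not tested.

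The remaining genes in this class were at lower levels. Pcdh19, the X-linked gene mutated in an epilepsy of girls, had 3.41, 3.32, 5.44, 4.81 and 6.21 CPM in EC-TRAIL KO, against 5.35, 5.71, 6.09, 7.13 and 7.19 CPM in Control. All 5 EC-TRAIL KO libraries were below the Control mean, yet the groups overlapped (log2 fold change -0.44, SE 0.184, edgeR adjusted p = 0.882). Pcdh7, a delta protocadherin first found in brain and heart, averaged 12.7 ± 2.23 CPM in EC-TRAIL KO and 15.4 ± 3.71 CPM in Control (SD, n = 5 each; log2 fold change -0.28, SE 0.169, edgeR adjusted p = 0.997), and without Control replicate 4 the log2 fold change was -0.15. Pcdh20 had 1.37, 2.29, 6.14, 2.40 and 4.22 CPM in EC-TRAIL KO, against 1.81, 2.55, 5.79, 1.43 and 3.25 CPM in Control. Its highest library was replicate 3 in each group and the next was replicate 5 (log2 fold change 0.15, SE 0.433, edgeR adjusted p = 0.997). Pcdh8, Pcdh9, Pcdh10, Pcdh11x and Pcdh15, the last a tip-link protein of hair cells, had means of 0.00897 to 0.246 CPM and at most 21 counts in any library. They did not pass the low-count filter.

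**Figure D1:**
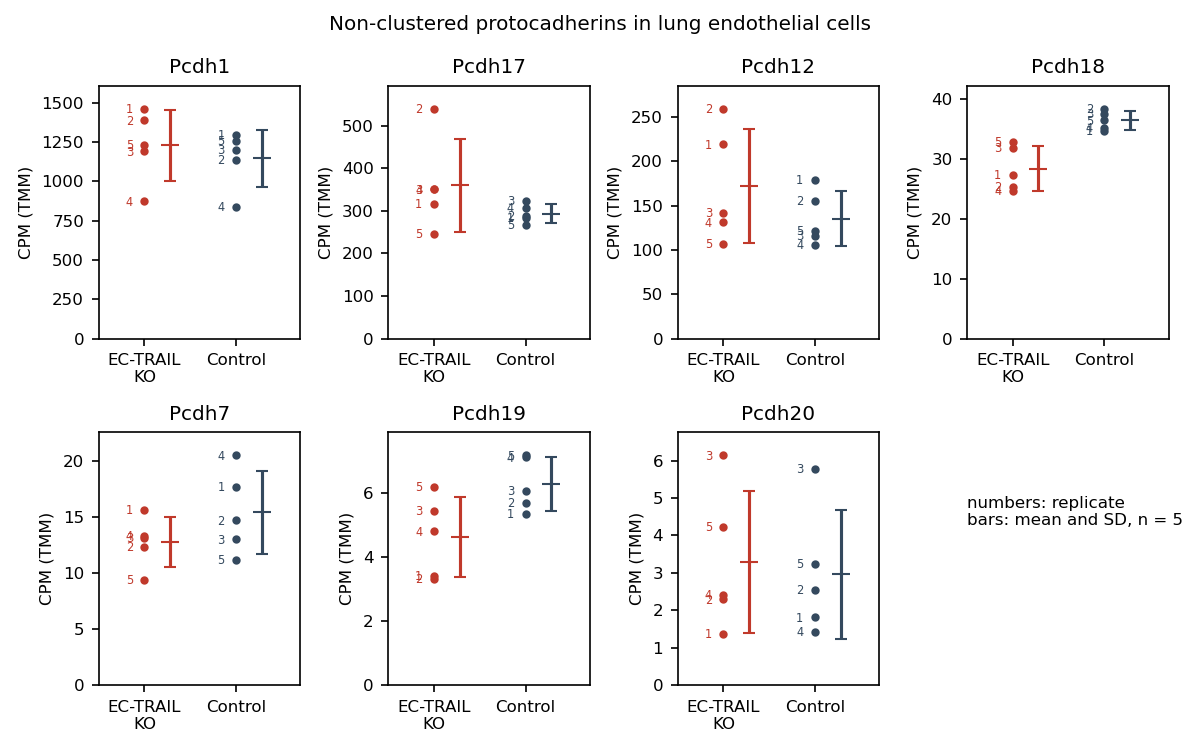
CPM of the 7 non-clustered protocadherins with a mean of at least 1 CPM, one point per library numbered by replicate, with mean and SD (n = 5 per group) beside them; each axis starts at 0. In Pcdh18 the EC-TRAIL KO points (24.6 to 32.8 CPM) all lie below the Control points (34.6 to 38.3 CPM), while in the other 6 genes the groups overlap.

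The alpha cluster was almost a single gene. Pcdhac2 (ENSMUSG00000102697, GRCm38 chromosome 18, 37143503 to 37187657, plus strand) took 94.9% ± 0.532 of the cluster's expected counts in EC-TRAIL KO and 94.9% ± 1.30 in Control (SD, n = 5 each). It had 94.4, 76.1, 72.1, 55.0 and 83.7 CPM in EC-TRAIL KO, against 99.1, 89.6, 83.3, 73.4 and 97.3 CPM in Control. In each group replicate 1 was the highest and replicate 4 the lowest. The groups overlapped, and the log2 fold change was -0.22 (SE 0.130, edgeR adjusted p = 0.997), and -0.12 without EC-TRAIL KO replicate 4. Pcdhac1, the other C-type gene, averaged 1.56 ± 0.464 CPM in EC-TRAIL KO and 1.40 ± 0.413 CPM in Control (log2 fold change 0.16, SE 0.263, edgeR adjusted p = 0.997). None of the 12 numbered alpha genes reached a mean of 1 CPM, and the highest over all 10 libraries, Pcdha12 (0.593 CPM), averaged 0.612 ± 0.234 CPM in EC-TRAIL KO and 0.574 ± 0.256 CPM in Control (SD, n = 5 each; log2 fold change 0.085, edgeR adjusted p = 0.997).

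Among the numbered alpha genes, Pcdha4 had 0.325, 0.0836, 0.182, 0.356 and 0.469 CPM in EC-TRAIL KO, against 0.657, 0.905, 0.595, 0.487 and 0.807 CPM in Control. The groups did not overlap, and they rested on 2.52 to 53.2 expected counts per library. The log2 fold change was -1.27 (SE 0.355, edgeR adjusted p = 0.288). Pcdha8 and the gene ENSMUSG00000007440, which shares the symbol Pcdha11 with ENSMUSG00000102206 in the annotation, had log2 fold changes of -0.48 and -0.56 (SE 0.420 and 0.298, edgeR adjusted p = 0.997 for both). The other 8 alpha genes (Pcdha1, Pcdha2, Pcdha3, Pcdha5, Pcdha6, Pcdha7, Pcdha9 and ENSMUSG00000102206) did not pass the filter, with means of at most 0.339 CPM. Pcdha6 was at 0 counts in 8 libraries, the 5 of EC-TRAIL KO among them, and reached 14.7 counts in the highest Control library.

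The beta cluster was used broadly and at a low level. Apart from Pcdhb1, which had at most 1 count in any library, all of its genes passed the filter, with means of 1.05 to 15.6 CPM. Pcdhb17 was the highest, with 14.3, 19.4, 20.3, 14.0 and 14.0 CPM in EC-TRAIL KO, against 14.6, 13.8, 16.0, 14.2 and 15.8 CPM in Control (log2 fold change 0.14, SE 0.121, edgeR adjusted p = 0.997). Pcdhb16 averaged 9.63 ± 1.51 CPM in EC-TRAIL KO and 8.34 ± 0.634 CPM in Control, and Pcdhb14 9.02 ± 2.22 CPM in EC-TRAIL KO and 8.24 ± 1.98 CPM in Control (SD, n = 5 each; log2 fold changes 0.21 and 0.13, edgeR adjusted p = 0.997 for both). Pcdhb5 had the smallest p of all members with a positive fold change, at 3.46, 5.21, 3.59, 2.92 and 4.21 CPM in EC-TRAIL KO, against 3.03, 2.84, 3.05, 3.67 and 2.84 CPM in Control (log2 fold change 0.33, SE 0.168, edgeR adjusted p = 0.997). Its groups overlapped. With replicate 2 of EC-TRAIL KO left out, log2 fold changes were 0.20 for Pcdhb5, 0.10 for Pcdhb16 and 0.075 for Pcdhb17, and Pcdhb17 had 0.053 with replicate 3 of that group left out.

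The gamma cluster was on throughout, with all 21 genes tested and means of 6.67 to 338 CPM. Pcdhgc3 (ENSMUSG00000102918, GRCm38 chromosome 18, 37806364 to 37841873, plus strand) had 337, 469, 329, 376 and 298 CPM in EC-TRAIL KO, against 309, 315, 332, 340 and 274 CPM in Control. Replicate 2 of EC-TRAIL KO was the highest, and the groups overlapped. The log2 fold change was 0.20 (SE 0.114, edgeR adjusted p = 0.997), and 0.093 (SE 0.0878) without that library. Pcdhgc3 took 48.0% ± 2.99 of the cluster's counts in EC-TRAIL KO and 44.3% ± 2.05 in Control (SD, n = 5 each), with overlapping ranges.

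The other C-type gamma genes, Pcdhgc4 and Pcdhgc5, were far lower, at 9.62 and 11.9 CPM over all libraries. The 6 B-type genes had a median of 5.34 CPM per kb and the 12 A-type genes a median of 2.71 CPM per kb, within ranges of 2.35 to 11.2 and 1.31 to 5.20 CPM per kb that overlap. Pcdhgb2, the highest B-type gene, averaged 51.7 ± 5.66 CPM in EC-TRAIL KO and 57.5 ± 3.94 CPM in Control, and Pcdhgb6 49.4 ± 6.10 CPM in EC-TRAIL KO and 48.8 ± 2.81 CPM in Control (SD, n = 5 each; log2 fold changes -0.15 and 0.016, edgeR adjusted p = 0.997 for both). Pcdhga8 had 6.13, 7.21, 8.90, 7.70 and 5.56 CPM in EC-TRAIL KO, against 8.70, 10.3, 7.68, 8.62 and 10.4 CPM in Control (log2 fold change -0.36, SE 0.141, edgeR adjusted p = 0.809). Pcdhga12 averaged 24.5 ± 2.10 CPM in EC-TRAIL KO and 21.3 ± 3.05 CPM in Control (log2 fold change 0.20, SE 0.103, edgeR adjusted p = 0.997). The groups of both genes overlapped.

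**Figure D2:**
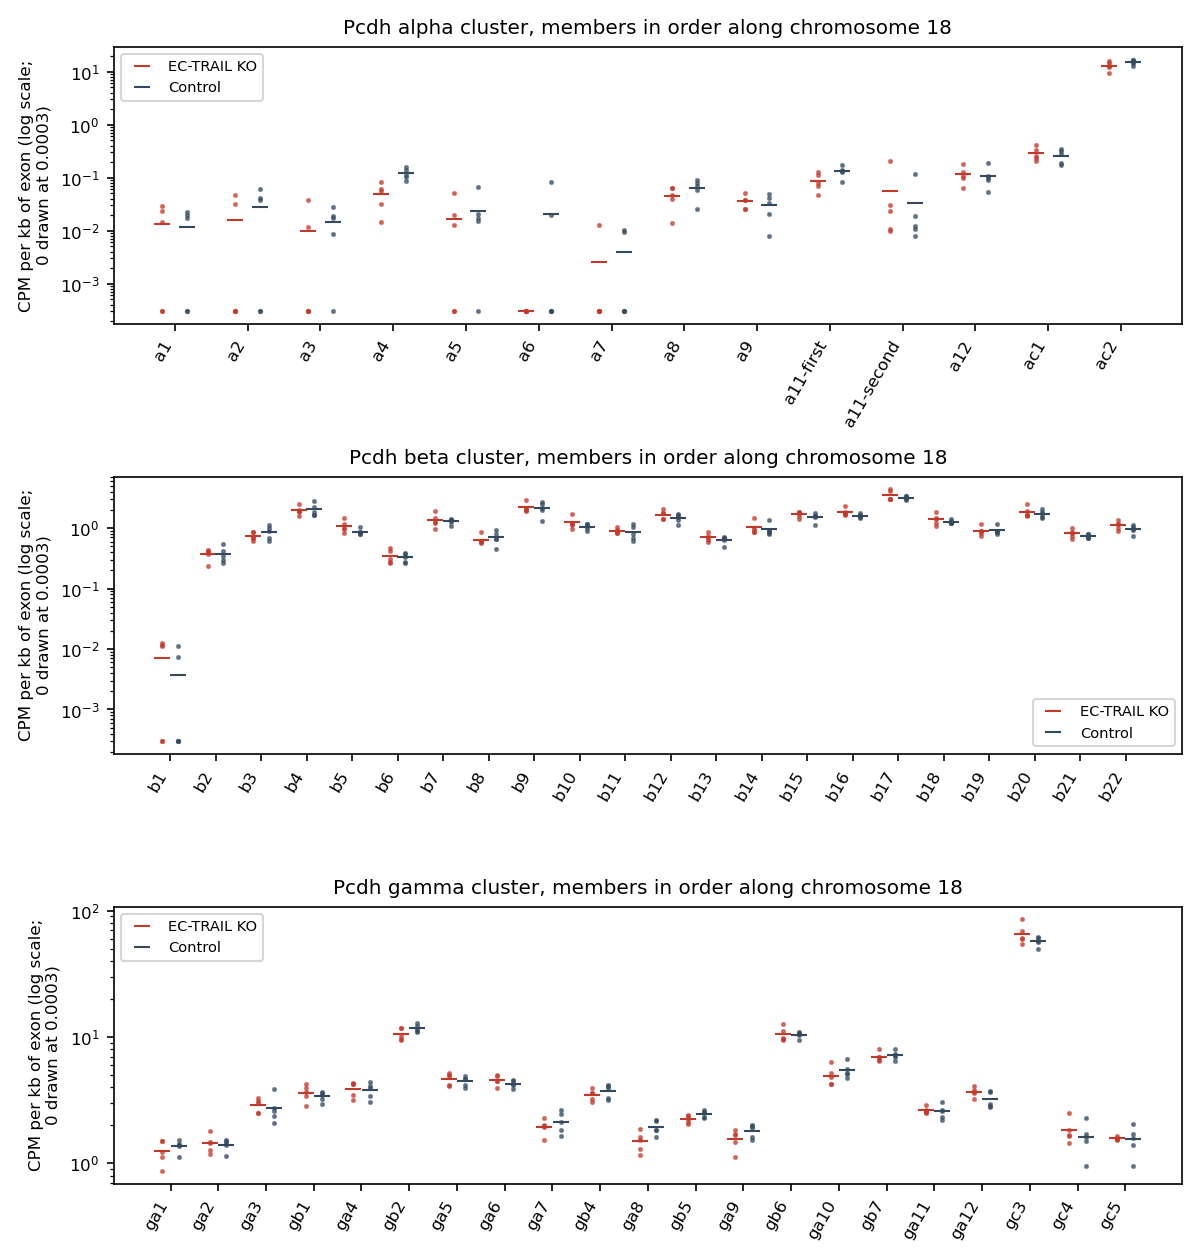
CPM per kb of exon on a log axis for every gene of the 3 clusters in order along chromosome 18, with EC-TRAIL KO left of Control, small points for libraries and dashes for group means; values of 0 are drawn near the lower edge, at the level the axis label gives, and a11-first and a11-second are the identifiers ENSMUSG00000007440 and ENSMUSG00000102206. Pcdhac2 (14.0 CPM per kb over all libraries) and Pcdhgc3 (61.5 CPM per kb) stand above the rest of their clusters, while no beta gene exceeds a mean of 3.36 CPM per kb over all 10 libraries.

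Genes of a cluster share sequence, and the authors' tool RSEM divided such reads by a model. Exons of other alpha genes covered 38.0% to 54.9% of each alpha gene's exon length, and gamma genes shared 27.8% to 66.8%. Whole numbers, within 0.005, made up 0.476% of the gamma values, 22.1% of the alpha values and 6.82% of the beta values, where only Pcdhb21 and Pcdhb22 overlap in their exons. The non-clustered values were whole in 90.8% of cases. Values of 0 count as whole in every class, and many alpha values were 0, as in Pcdha6 (8 libraries) and Pcdha7 (7 libraries). The alpha share therefore does not show that fewer alpha reads were divided than beta reads. Sums over the members of a cluster, which do not depend on how reads were divided among those members, were set beside the single genes. Reads that the model gave to other genes in the loci are not in the sums.

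The alpha sum was 99.1, 80.2, 76.0, 58.5 and 87.8 CPM in EC-TRAIL KO, against 103, 93.6, 87.6, 79.0 and 103 CPM in Control. The means were 80.3 ± 15.0 CPM in EC-TRAIL KO and 93.2 ± 10.2 CPM in Control (SD, n = 5 each), and the log2 ratio of means was -0.21. The beta sum averaged 117 ± 17.9 CPM in EC-TRAIL KO and 108 ± 6.80 CPM in Control, a log2 ratio of 0.11. The gamma sum was 705, 890, 726, 774 and 653 CPM in EC-TRAIL KO, against 706, 703, 724, 740 and 669 CPM in Control. Its means were 750 ± 89.8 CPM in EC-TRAIL KO and 708 ± 26.3 CPM in Control, a log2 ratio of 0.082. In each cluster the groups overlapped. Without EC-TRAIL KO replicate 2 the log2 ratio was 0.011 for the beta sum and 0.012 for the gamma sum. The gamma ratio was 0.13 without EC-TRAIL KO replicate 5, and the alpha ratio was -0.12 without EC-TRAIL KO replicate 4. Without Pcdhgc3 the remaining 20 gamma genes summed to 388 ± 26.0 CPM in EC-TRAIL KO and 394 ± 4.72 CPM in Control.

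**Figure D3:**
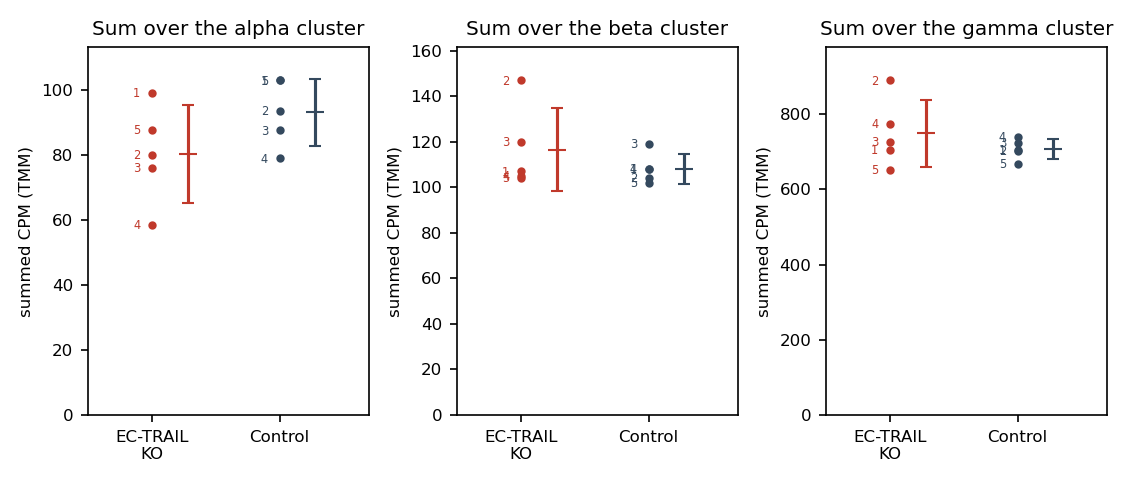
Summed CPM of each cluster, one point per library numbered by replicate, with mean and SD (n = 5 per group); each axis starts at 0. The groups overlap in each sum, and EC-TRAIL KO replicate 2 is the highest library of the beta sum (147 CPM) and the gamma sum (890 CPM).

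Across the family, 55 of 69 members passed the low-count filter, 7 of 12 non-clustered and 48 of 57 clustered. By edgeR's quasi-likelihood F-test, adjusted over 17997 genes by Benjamini-Hochberg, 0 of 55 were higher and 0 were lower, where the test called 0.439% of all genes higher and 0% lower. DESeq2 called 1 member, Pcdh18, lower and 0 higher, against 0.0167% of all genes lower and 1.16% higher, and limma-voom called 0. At an unadjusted p under 0.05, 0 members were higher and 4 were lower (Pcdh18, Pcdh19, Pcdha4 and Pcdhga8), where 3.81% of all genes were higher and 1.32% lower. In 2 members, Pcdh18 and Pcdha4, all EC-TRAIL KO libraries lay below all Control libraries, against 0.261% of all genes, and in 0 members above, against 1.38%.

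The median log2 fold change was 0.052 over the 48 tested clustered genes and 0.10 over the 7 tested non-clustered genes, beside -0.0085 over all genes tested. Over the same 7 genes the non-clustered median ran from -0.21 (without EC-TRAIL KO replicate 3) to 0.20 (without EC-TRAIL KO replicate 4), and it was -0.026 without Control replicate 4. By cluster it was -0.35 for 6 alpha genes, 0.13 for 21 beta genes and 0.029 for 21 gamma genes. Fold changes were above 0 in 16 of 21 beta genes, 12 of 21 gamma genes, 2 of 6 alpha genes and 4 of 7 non-clustered genes. Without EC-TRAIL KO replicate 2 they were above 0 in 11 of 21 beta genes, with a median of 0.016, and without Control replicate 5 the beta median was 0.069. The gamma median ran from -0.037 (without Control replicate 3) to 0.033 (without Control replicate 4). Members of a cluster share reads and a locus, so these counts are not independent. The non-clustered genes ran from -0.44 to 0.34 and the clustered genes from -1.27 to 0.33 on the log2 scale.

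EC-TRAIL KO replicate 2 was the highest of all 10 libraries in 21 of 55 tested members (38.2%), where it was the highest in 16.8% of all tested genes. In that library the 6 proliferation markers summed to 822 CPM, within 156 to 822 CPM in EC-TRAIL KO and 47.3 to 101 CPM in Control, and all 6 markers rose by edgeR's test. Over all genes, the number of higher calls depended on which library was left out. With all libraries 79 genes passed as higher, against 87 without EC-TRAIL KO replicate 2, 114 without replicate 5 and 154 without replicate 1 of that group. With any 1 Control library left out, or with EC-TRAIL KO replicate 3 or 4 left out, 2 passed. EC-TRAIL KO replicate 2 also had the lowest sums of the alveolar (6231 CPM), fibroblast (344 CPM) and pericyte markers (244 CPM) of all 10. The part of these differences in the protocadherin values was not tested.

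**Figure D4:**
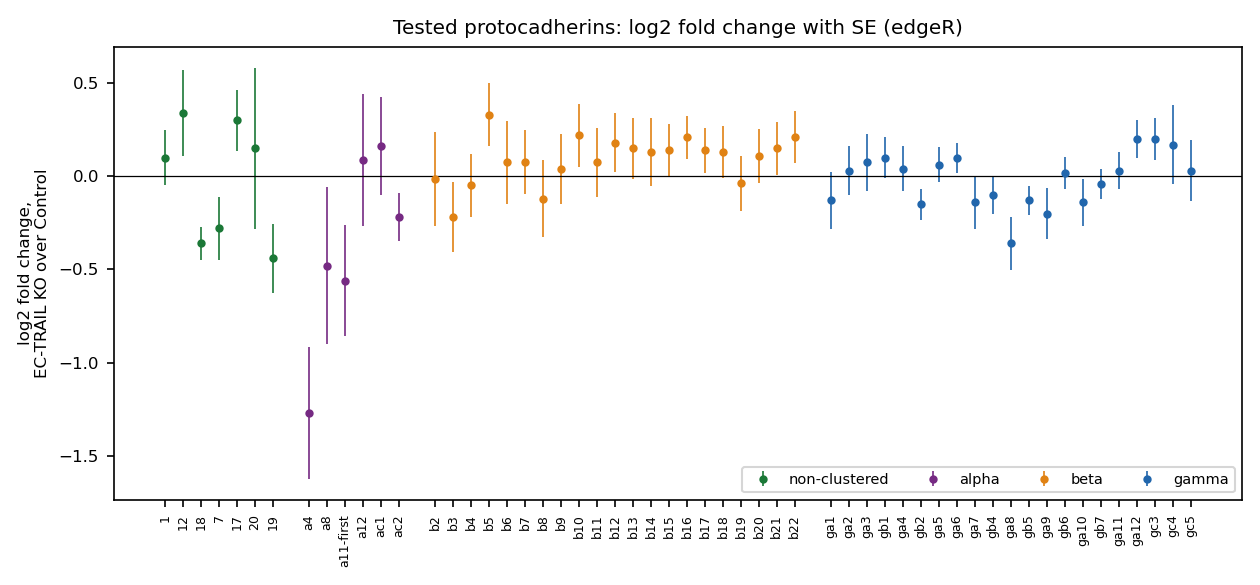
Log2 fold change of EC-TRAIL KO over Control with its SE for the 55 tested protocadherins, named without their prefix Pcdh and grouped as non-clustered, alpha, beta and gamma genes. Most values lie within 0.33 of 0, Pcdha4 is the lowest at -1.27, and Pcdh18 at -0.36 has the smallest p.

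Genes around the family were read from 3 lists. Of 15 regulators of protocadherin promoter choice and chromatin, 0 rose and 0 fell by edgeR's test (median log2 fold change 0.021). Dnmt1, the maintenance DNA methyltransferase, had 119 ± 17.7 CPM in EC-TRAIL KO and 101 ± 5.37 CPM in Control (SD, n = 5 each; log2 fold change 0.25, 0.16 without EC-TRAIL KO replicate 2, edgeR adjusted p = 0.764), and the cohesin subunit Rad21 had a log2 fold change of 0.17 (edgeR adjusted p = 0.997). Of 16 binding partners and processing enzymes, 0 passed (median 0.033). Their smallest p belonged to Wasf1, a WAVE subunit, at 0.651 ± 0.148 CPM in EC-TRAIL KO and 0.404 ± 0.0505 CPM in Control (SD, n = 5 each; log2 fold change 0.68, edgeR adjusted p = 0.550). Of 11 genes in the list of related long cadherins, which also held Fjx1, not itself a cadherin, 0 passed (median -0.027). Among these Dchs1, a ligand of Fat4, averaged 160 ± 58.1 CPM in EC-TRAIL KO and 112 ± 24.1 CPM in Control (SD, n = 5 each; log2 fold change 0.52, edgeR adjusted p = 0.887), and Celsr2, a planar polarity cadherin, had 0.20 (edgeR adjusted p = 0.852). With replicate 2 of EC-TRAIL KO left out, Dchs1 had 0.28 and Celsr2 0.13 on the log2 scale.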

How the data were processed

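The table the authors deposited holds RSEM's expected counts for each gene, not normalized. RSEM 1.2.28, STAR 2.7.1a and build GRCm38 are named in the submitters' processing notes. The sources used here give no annotation release, strand setting or filter. Of the 55385 identifiers, 55144 matched GENCODE M21 (GRCm38), the source of symbols, positions and exon lengths.

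Expected counts were rounded and fitted in R 4.3.3 with edgeR 4.0.16. filterByExpr (minimum count 10) left 17997 genes, sizes were scaled by TMM, and group was the only term in the quasi-likelihood F-test. Benjamini-Hochberg adjustment covered all tested genes, with a threshold of 0.05. CPM and sums used unrounded counts. The SE is the log2 fold change divided by the square root of F. Alternatives were RLE factors, library size only, DESeq2 1.42.0, limma-voom (limma 3.58.1), other filters, a replicate block, each library left out, and clusters summed to 1 row. The fit was also run on simulated counts, and its recovery of small fold changes is not reported here. That run therefore does not show that changes as small as those of most members could be detected. Any 2 libraries differed beyond sampling noise (chi-square per degree of freedom at least 20.1).

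The members and lists were chosen with earlier results of these data known. Named are non-clustered members with at least 1 CPM, the 3 highest of each cluster, the 3 smallest p in each direction, and the 2 smallest p of each pathway list, of which 1 gene is not reported here. Pcdha8, Pcdhgc4, Pcdhgc5, the identifiers under Pcdha11 and the members that failed the filter were named after their values were seen. Other marker lists gave no call: lymphatic (median log2 fold change 0.17), airway (-0.049), mesothelial (0.60), leukocyte (-0.038) and neuronal and glial markers (-0.16).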

Additional observations from a re-analysis of the deposited data

Results flagged for a closer look

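In 4 of 46 groups of 5 libraries checked, one library lay far from the rest by Dixon's ratio, which chance gives in about 1 in 20 groups. Pcdhb16 had 12.3 CPM in EC-TRAIL KO replicate 2, against 8.58 to 9.49 CPM in the other EC-TRAIL KO libraries. Pcdhb14 had 12.9 CPM in the same library, against 7.53 to 8.88 CPM in the others of its group. Pcdhb14 also had 11.7 CPM in Control replicate 1, against 6.91 to 7.69 CPM in the other Control libraries. Pcdhb5 had 3.67 CPM in Control replicate 4, against 2.84 to 3.05 CPM in the others.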

How the results depend on the processing

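No protocadherin passed in either direction under 17 of 18 alternatives, the exception being DESeq2 with 1 lower member, Pcdh18. With clusters summed to 1 row each, the 57 clustered members had no row of their own and could not pass. The filter at a mean of 1 CPM left out members below it, Pcdha4 among them. The count of higher genes over the whole table moved more than the count of members. It was 79 in the full comparison, 208 with DESeq2, 141 with no low-count filter, 146 with the replicate number as a block, 2 with library size only, 2 with limma-voom, and 2 to 154 with 1 library left out (154 without EC-TRAIL KO replicate 1, 2 without any 1 Control library or without EC-TRAIL KO replicate 3 or 4). Lower genes numbered 0, against 3 with DESeq2, 2 with no filter, 3 with the block and 0 to 1 with 1 library left out. The cause was not tested. The median of the non-clustered genes, 0.10, ran from -0.19 to 0.14 with 1 library left out, each fit with its own low-count filter, which let in Pcdh9 in 6 of 10 fits. The clustered median ran from -0.012 (without EC-TRAIL KO replicate 2) to 0.090, and the log2 ratios of the sums from -0.30 to -0.12 (alpha), 0.011 to 0.14 (beta) and 0.012 to 0.13 (gamma). Of 26 named genes, 21 kept their sign in all alternatives that gave a value. Signs turned with 1 library left out for 5 genes. Log2 fold changes then ran from -0.21 to 0.54 for Pcdh20, from -0.013 to 0.29 for Pcdhac1, from -0.13 to 0.39 for Pcdha12, from -0.034 to 0.29 for Pcdhb14 and from -0.055 to 0.049 for Pcdhgb6. The negative values were those of Pcdh20 (-0.026 without Control replicate 4, -0.21 without EC-TRAIL KO replicate 3), Pcdhac1 (-0.013 without EC-TRAIL KO replicate 5), Pcdha12 (-0.089 without Control replicate 1, -0.13 without EC-TRAIL KO replicate 2), Pcdhb14 (-0.034 without EC-TRAIL KO replicate 2) and Pcdhgb6 (-0.019 without Control replicate 1, -0.055 and -0.0064 without EC-TRAIL KO replicates 2 and 3). Same-numbered libraries deviated together with correlations of 0.0679 to 0.433. As 1 of 5 was under 0.1 and no label names a shared litter or day, the numbers were not taken as pairs, though 8 of 10 libraries correlated best with their own number. With the replicate block, edgeR's adjusted p was 0.0844 for Pcdh18, 0.213 for Pcdhac2 and 0.229 for Pcdh19. The block gave SEs of 0.0604 for Pcdhac2 and 0.0714 for Pcdh1, against 0.130 and 0.148 without it. For Pcdha4 the SE was larger with the block, 0.379 against 0.355. Members under 1 CPM rest on few counts, which limits their precision.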

Other observations

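Other genes annotated on the plus strand within the clusters can take reads of the shared exons. Pcdhgb8, a polymorphic pseudogene of the gamma cluster and so no member, averaged 5.80 CPM in EC-TRAIL KO and 5.19 CPM in Control. Gm38182, a transcript that shares the gamma constant exons, had 21.9 to 293 expected counts per library. It had 1.93, 1.35, 1.13, 5.28 and 9.71 CPM in EC-TRAIL KO, against 2.72, 0.373, 1.44, 2.65 and 0.815 CPM in Control, with means of 3.88 CPM in EC-TRAIL KO and 1.60 CPM in Control. Replicates 4 and 5 of EC-TRAIL KO were the highest, the groups overlapped, and the log2 fold change of 1.27 (SE 0.646) did not pass (edgeR adjusted p = 0.997). The fused genes Gm37013, Gm37388 and Gm42416, which span from the alpha into the gamma cluster, had at most 3.02 counts in any library.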
